A study of Mus musculus with 6 samples.

Results

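The regions described here carried called H3K27me3, the repressive trimethylation of lysine 27 on histone H3, in both control libraries and in exactly 1 of the 2 Ezh2 mutant libraries of mouse spermatogenic cells. The 4 MACS2 peak lists were merged wherever peaks touched or overlapped, and autosomal regions with a peak of both controls and of a single mutant were kept. There were 2719 such regions among 54594 autosomal merged regions (54748 with the sex chromosomes), of which 1851 were kept in mutant 1 and 868 in mutant 2. The regions were chosen by the presence or absence of MACS2 peaks in all 4 libraries, so their number, width and peak length are given as a description, with no test.

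H3K27me3 was mapped by chromatin immunoprecipitation and sequencing in testis cells of 6-week-old mice on a mixed background, after enzymatic digestion and separation from somatic cells on Percoll. The labels put the share of spermatogenic cells at 90%, so the cells are a mixture of stages and other cells may add calls. The controls were MvhCre;Ezh2fl/+ (2 libraries) and the mutants MvhCre;Ezh2fl/fl (2 libraries), so that every library came from animals with the germ cell Cre and at least 1 floxed allele, and the controls retained 1 wild-type Ezh2 allele. Mvh is a germ cell gene, and cells that escaped Cre would still hold EZH2; neither the efficiency of the deletion nor EZH2 itself was measured in these files. Whether same-genotype libraries are separate animals is not stated, so differences between them may be partly technical.

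EZH2 is the catalytic subunit of Polycomb repressive complex 2 (PRC2), which writes H3K27me3 and helps keep developmental genes silent. Its paralog EZH1 can take its place in the complex, so H3K27me3 can persist where EZH2 is lost. The mark can spread from sites where the complex is recruited, and it forms broad domains over silent developmental genes as well as short patches elsewhere. Whether loss of Ezh2 removes a given patch can be read from peak lists only as called or not called: a list holds no signal height, and a weak patch may fall on either side of the caller's threshold.

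MACS2 listed 32193 and 31774 autosomal peaks in controls 1 and 2, and 42229 and 32008 in mutants 1 and 2. The covered length on autosomes was 67.2 and 69.7 Mb for the controls, 81.7 Mb for mutant 1 and 64.2 Mb for mutant 2. By its peaks mutant 1 stood apart, with 1.32 times as many as mutant 2. Bins called by the second program, hiddenDomains, covered 53.3 and 54.1 Mb in controls 1 and 2, 50.7 Mb in mutant 1 and 44.5 Mb in mutant 2, so that by bins mutant 2 was the library farthest from the others. Read depth is unknown for every library, and what the excess of peaks in mutant 1 contributes to the counts below was not tested except through the alternatives given with them. Mean, SD and test across the 2 mutants were not used, since each kind of region rests on 1 mutant library.

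The first question was how many control regions the mutants disagreed on. Among 25276 autosomal regions with peaks in both controls, 19873 had peaks in both mutants as well, 2684 in neither and 2719 in a single mutant. The single-mutant regions were 10.8% of the regions of both controls (95% Wilson interval 10.4 to 11.1%, for counting error only). Those kept in mutant 1 alone made up 7.32% and those kept in mutant 2 alone 3.43%. Regions on which the mutants disagreed were thus about as many as regions lost from both.

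The disagreement was lopsided. Mutant 1 held 68.1% of the single-mutant regions (95% Wilson interval 66.3 to 69.8%), a ratio of 2.13 to 1 over mutant 2. The controls showed no such imbalance in the mirror case. Their lists were nearly equal in length, at 32193 and 31774 autosomal peaks, whereas those of the mutants held 42229 and 32008. What list length contributes to the contrast was not tested. Of 2445 regions called in both mutants and in a single control, 1266 were called in control 1 and 1179 in control 2, so that control 1 held 51.8% (95% Wilson interval 49.8 to 53.8%). These mirror regions were 9.56% of the 25577 autosomal regions called in both mutants. Regions shared by mutant 1 and a single control numbered 1155 with control 1 and 1113 with control 2, whereas mutant 2 shared 255 and 288 such regions. Mutant 1 thus also had the larger number among regions that only 1 control held.

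The direction of this imbalance depended on how the longer list of mutant 1 was treated. When the same number of widest peaks, 31863, was taken from every list, 1008 regions were kept in mutant 1 alone and 2180 in mutant 2 alone, and the share of mutant 1 fell to 31.6%. That setting left out 10500 peaks of mutant 1, so that its shortest remaining peak was 652 bp, but only 231 of mutant 2, where peaks down to 239 bp remained. When instead every list was restricted to peaks of at least 1 kb, 1162 regions were kept in mutant 1 and 713 in mutant 2, a share of 62.0%. With regions built from hiddenDomains bins the numbers were 1293 and 727, or 64.0%. Mutant 1 kept more regions under each of these rules except the equal number of widest peaks.

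**Figure D1:**
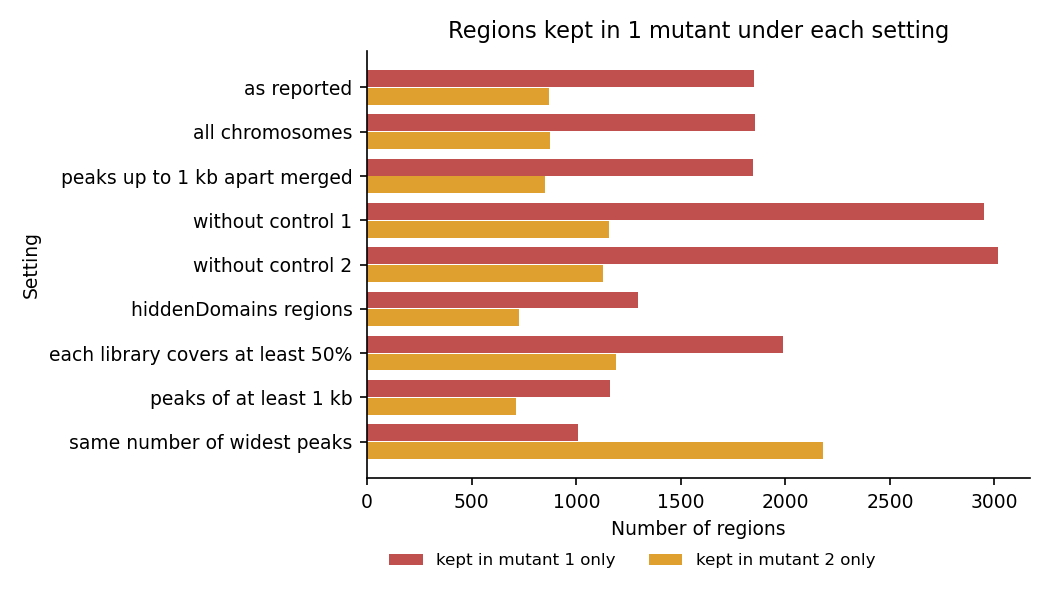
Number of autosomal regions (horizontal axis) called in the controls and in mutant 1 only or mutant 2 only, under the reported rule and each alternative; all chromosomes are used in the alternative of that name. Mutant 1 has the longer bar in every setting but the last, where the same number of widest peaks gives 1008 against 2180 regions.

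Single-mutant regions were short in the controls. Across all regions of both controls, sorted into 10 groups of equal size by the mean peak length of the controls, the share called in a single mutant fell steeply with length. In group 1, the shortest, with a median of 531 bp, 21.1% were kept in mutant 1 alone, 7.99% in mutant 2 alone, 29.9% in both and 40.9% in neither. In group 5, with a median of 1723 bp, 5.74% were kept in mutant 1 alone and 3.24% in mutant 2 alone, while 85.4% were kept in both. In group 10, the longest, with a median of 6328 bp, mutant 1 alone kept none and mutant 2 alone kept 1 region of 2528, so that 99.9% had a peak in both mutants. Regions with long control peaks were thus almost never a point of difference between the mutants. A mutant counts with 1 bp of a peak, and a longer control peak has more room for it. What that adds to the fall with length was not tested.

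The excess of mutant 1 was concentrated among the short regions. The ratio of regions kept in mutant 1 to those kept in mutant 2 was 2.64 in group 1 (534 against 202 regions), 2.47 in group 2 and 2.08 in group 3. It was 1.63 in group 4 (246 against 151), 1.77 in group 5, 1.56 in group 6 and 1.42 in group 7 (27 against 19). In the 3 longest groups the counts were too small for an order, at 9 against 10, 6 against 2 and 0 against 1 regions.

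**Figure D2:**
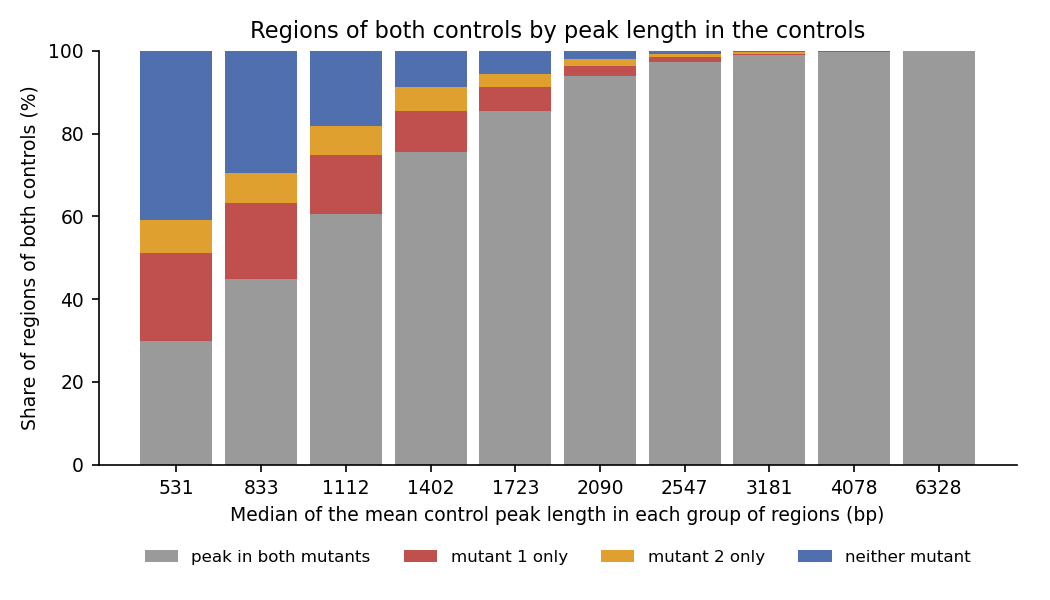
Share of the 25276 autosomal regions of both controls (vertical axis, %) with a peak in both mutants, in mutant 1 only, in mutant 2 only or in neither, for 10 equal groups of the regions ordered by the mean peak length of the 2 controls (horizontal axis, median of each group in bp). Both single-mutant classes shrink from left to right, from 21.1% and 7.99% in the shortest group to 5.74% and 3.24% in group 5.

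Width was compared next, and under the reported rule the regions kept in either mutant were alike in median width. The median merged width was 1397 bp in the mutant 1 class (10th to 90th percentile 768 to 2463 bp) and 1396.5 bp in the mutant 2 class (755 to 2283 bp). The difference of medians was 0.50 bp, with a 95% interval from -50.2 to 75.3 bp for counting error only. With peaks of at least 1 kb it was 81 bp (1.37 to 142). With the same number of widest peaks it was 265.5 bp (214 to 328), and without control 2 it was 55.5 bp (6.96 to 106). The intervals of the other alternatives included 0. Regions called in all 4 libraries were 2960 bp wide at the median and those of both controls and neither mutant 1044 bp, so the single-mutant regions lay between. The number of libraries that add to the merged width differs between these classes, so part of this order is set by the rule. The mean peak length of the controls gave the same order. Its median was 2309.5 bp in regions of all 4 libraries and 792 bp in regions of neither mutant. In the mutant 1 and mutant 2 classes it was 931 and 1054 bp. Longer control peaks also have more room for the 1 bp of a mutant peak that the rule asks. What that adds to this order was not tested. Regions of 1 to 2 kb made up 55.0% of the mutant 1 class and 57.8% of the mutant 2 class. Those of 2 to 5 kb made up 21.4% and 17.3%, and regions over 5 kb numbered 4 and 3.

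Equal median widths hid different contributions of the libraries. In the mutant 1 class the median peak length per region was 914 bp in control 1, 917 bp in control 2 and 720 bp in mutant 1. In the mutant 2 class it was 994 bp in control 1, 1042 bp in control 2 and 597 bp in mutant 2. Regions kept in mutant 2 alone thus had longer peaks in both controls and a shorter one in the keeping mutant. The keeping mutant's median was 124 bp longer in the mutant 1 class (95% interval 78.6 to 177 bp, counting error only).

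In both classes the keeping mutant most often had a shorter peak than either control. In the mutant 1 class, mutant 1 covered less than both controls in 945 regions (51.1%), lay between them in 411 and covered more than both in 495 (26.7%). In the mutant 2 class, mutant 2 covered less than both controls in 583 regions (67.2%), lay between them in 164 and covered more than both in 121 (13.9%). The median absolute difference between the controls was 290 bp in the first class and 289 bp in the second. The median difference of the keeping mutant from the control mean was -188 bp for mutant 1 and -382.5 bp for mutant 2. Without regard to sign that difference was 442.5 bp for mutant 1 and 431.8 bp for mutant 2 at the median. It sets 1 library against a mean of 2, in regions chosen by these same peaks. It is therefore not a like measure to the difference between the controls. These are lengths of called peaks and do not give a level of the mark.

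**Figure D3:**
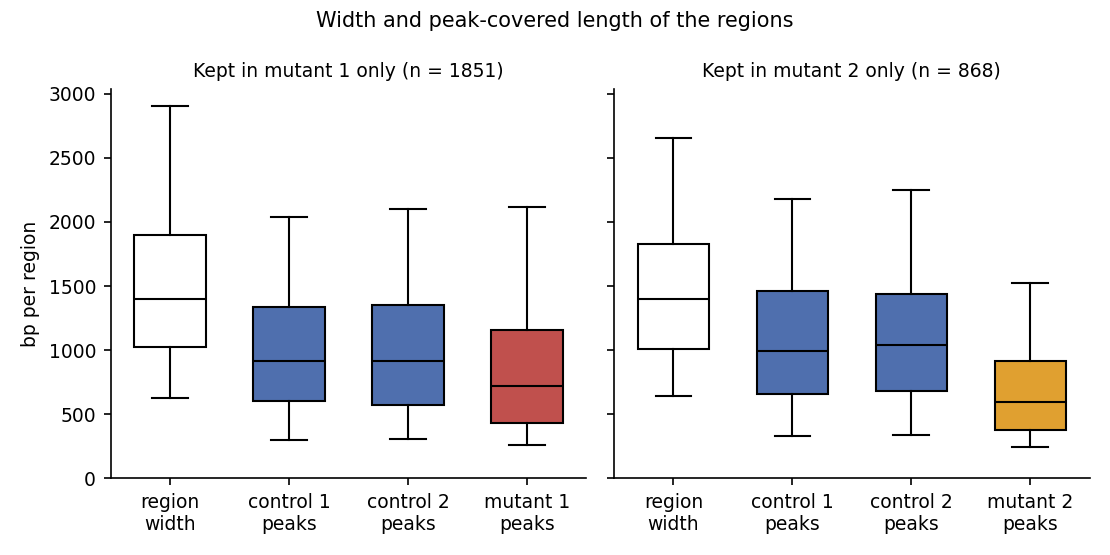
Region width and peak-covered length per region in bp (vertical axis) for the 1851 regions kept in mutant 1 only (left) and the 868 kept in mutant 2 only (right); boxes span the quartiles with the median as a line, and whiskers the 5th to 95th percentiles. The median widths match, while mutant 2 peaks (median 597 bp) are shorter than mutant 1 peaks (median 720 bp) and the control peaks are longer on the right.

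Most single-mutant regions were simple overlaps of 1 peak per library. In 1812 of the 1851 mutant 1 regions (97.9%) and 859 of the 868 mutant 2 regions (99.0%), each of the 3 libraries contributed exactly 1 peak. At least 1 bp was shared by both controls and the keeping mutant in 1731 (93.5%) and 829 (95.5%) regions. In the remaining 120 and 39 regions the peaks were joined only in a chain, without a base common to all 3. The stretch common to all 3 libraries had a median of 364 bp in the mutant 1 class and 380.5 bp in the mutant 2 class. Each of the 3 libraries covered at least 50% of the region in 554 (29.9%) and 274 (31.6%) regions.

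In most regions the lacking mutant had no peak close by. The nearest peak of the lacking mutant lay within 1 kb in 56 mutant 1 regions (3.03%) and 39 mutant 2 regions (4.49%), and within 10 kb in 42.7% and 41.7%. In regions of both controls and neither mutant, a mutant 2 peak lay within 1 kb in 1.12% and within 10 kb in 33.9%, and a mutant 1 peak in 2.27% and 38.5%. The median gap was 13.1 kb to the nearest peak of mutant 2 and 14.1 kb to the nearest peak of mutant 1. Regions of both controls and neither mutant lay a median of 15.0 kb from a peak of mutant 1 and 18.1 kb from a peak of mutant 2.

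The rule turns on a single base pair, which is seen at its edges. The mutant 1 region with the smallest gap to a mutant 2 peak, 7 bp, was chr1:186512241-186513125 (mm9, as are all positions here), with 231 and 500 bp of peaks in the controls and 691 bp in mutant 1. The corresponding mutant 2 region, chr5:106920948-106922339, had 1273 and 1392 bp in the controls and 329 bp in mutant 2, and lay 14 bp from a mutant 1 peak. Both would leave the set if the neighbouring peak reached slightly farther. The shortest qualifying peak was 238 bp in mutant 1, in 44 regions of which chr1:176360650-176361373 is the first, and 239 bp in mutant 2, in 31 regions of which chr1:129472475-129473100 is the first. These are the shortest lengths in the lists of those libraries. Just outside the rule, chr1:4515203-4516897, for example, was called in all 4 libraries with only 239 bp in mutant 2, and chr1:42837111-42838429 with only 238 bp in mutant 1. Also outside, chr17:7993576-7994538 was a region of both controls that missed a mutant 1 peak by 13 bp, and chr7:31262457-31263659 missed a mutant 2 peak by 16 bp.

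Support by hiddenDomains, a hidden Markov model caller for broad marks whose bins are 200 bp wide, was compared next. It read the same libraries, so it is a second reading of the same data and not an independent experiment. Over all autosomal merged regions, at least 1 bp of a bin was found in 41.1% for control 1, 40.5% for control 2, 42.1% for mutant 1 and 34.4% for mutant 2. Over the regions of both controls the shares were 84.4, 83.6, 73.2 and 67.8%.

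Where bins were called in a single mutant, it was mostly the mutant with the peak, but bins supported the mutant peak in only a minority of the regions of either class. No bin of either mutant was found in 1222 of the 1851 mutant 1 regions and 616 of the 868 mutant 2 regions. In those regions the bins did not tell the mutants apart.
In the mutant 1 class, bins were found in 59.3% of regions for control 1, 54.8% for control 2, 32.5% for mutant 1 and 3.24% for mutant 2. In the mutant 2 class they were found in 73.2% for control 1, 72.6% for control 2, 1.96% for mutant 1 and 28.2% for mutant 2. The support of the keeping mutant was 4.30 percentage points higher in the mutant 1 class (95% interval 0.567 to 7.91, counting error only). That difference was smaller, with an interval that included 0, with 50% of the region required under the peaks of a library (1.02 points, -2.33 to 4.42), with peaks of at least 1 kb (0.681, -3.39 to 4.85), with the same number of widest peaks (2.13, -1.52 to 5.81), with bins of the highest score only (2.16, -1.32 to 5.497) and with 50% of the region required under bins (0.238, -2.21 to 2.49). The support of the controls was lower in the mutant 1 class than in the mutant 2 class, with intervals of 57.0 to 61.5% against 70.1 to 76.0% for control 1. In regions of both controls and neither mutant, bins of mutant 1 were found in 0.782% and bins of mutant 2 in 1.19%.

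**Figure D4:**
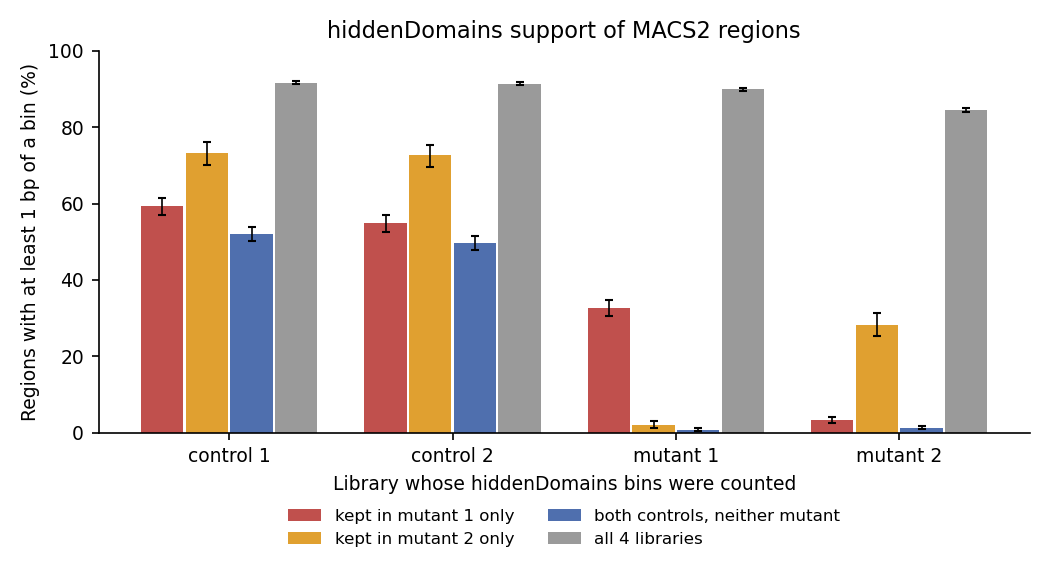
Share of MACS2 regions with at least 1 bp of a hiddenDomains bin (vertical axis, %), for the bins of each library (horizontal axis) and for 4 classes of region; lines are 95% Wilson intervals. The keeping mutants reach 32.5% and 28.2%, the lacking mutants 3.24% and 1.96%, against 84.5% or more in regions of all 4 libraries.

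The pattern over the 4 libraries was exactly repeated by the bins in a minority. Bins of both controls and mutant 1 but not mutant 2 were found in 274 regions of the mutant 1 class (14.8%), against 4.89% of all regions of both controls. Bins of both controls and mutant 2 but not mutant 1 were found in 162 regions of the mutant 2 class (18.7%), against 2.66%. The most frequent pattern was instead that of bins in both controls and neither mutant, in 512 regions (27.7%) and 362 regions (41.7%), against 10.1% of the regions of both controls. No bin of any library was found in 382 (20.6%) and 112 (12.9%), against 6.57%. Whatever the controls, bins were present in the keeping mutant and absent in the lacking one in 569 (30.7%) and 235 regions (27.1%). Bins contradicted the peaks, being present in the lacking mutant and absent in the keeping one, in 27 mutant 1 regions (1.46%) and 7 mutant 2 regions (0.806%). For bins in a single mutant whatever the controls, the share over all regions of both controls was not computed. Whether these shares are unusual is therefore not known.

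Support in the keeping mutant rose with the length of its own peak. In the mutant 1 class it was 20.6% for peaks under 0.5 kb (597 regions), 32.9% at 0.5 to 1 kb, 41.3% at 1 to 2 kb and 55.0% over 2 kb (120 regions). In the mutant 2 class it was 23.7% (355 regions), 26.0%, 39.2% and 64.7% (17 regions) in the same order. The difference between the classes was -3.06 points under 0.5 kb (95% interval -8.65 to 2.30), 6.89 points at 0.5 to 1 kb (0.866 to 12.6), 2.07 points at 1 to 2 kb (-6.84 to 10.6) and -9.71 points over 2 kb (-29.8 to 15.2). At matched peak length it was thus above 0 beyond counting error at 0.5 to 1 kb and in no other band.

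Control support was also lower in the mutant 1 class within bands of mean control peak length from 500 to 2000 bp. No intervals were computed for these shares, and lengths were not matched further within a band. Among regions whose controls averaged 0.5 to 1 kb of peaks, bins of both controls were found in 33.8% of 804 mutant 1 regions and 49.5% of 319 mutant 2 regions. At 1000 to 1500 bp the shares were 54.0% and 72.1%, and at 1500 to 2000 bp 73.1% and 85.1%. At each of these lengths the mutant 1 peak was longer than the mutant 2 peak at the median, at 640 against 548 bp, 753 against 620 bp and 871 against 759 bp. Whether the greater number of peaks in mutant 1 accounts for this was not tested.

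When the second caller defined the regions, most of its single-mutant regions had MACS2 peaks in both mutants, though fewer than its regions in general. Of 20761 autosomal hiddenDomains regions of both controls, 6.23% had bins of mutant 1 alone and 3.502% of mutant 2 alone. MACS2 peaks of all 4 libraries overlapped 977 of the 1293 mutant 1 regions (75.6%) and 501 of the 727 mutant 2 regions (68.9%), against 87.5% of all its regions of both controls. The same single-mutant pattern was found by MACS2 in 281 (21.7%), against 4.13%, and in 183 (25.2%), against 2.79%.

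The widest regions illustrate these differences. The widest kept in mutant 1 alone, chr7:20520591-20526259, held 4365 and 3176 bp of peaks in the controls, 3033 bp in mutant 1 and none in mutant 2, with bins of 200 and 600 bp in the controls, 1600 bp in mutant 1 and none in mutant 2. At chr8:36910364-36915562 the peaks were 4872, 4222 and 3632 bp and the bins 2200, 2562 and 800 bp in controls 1 and 2 and mutant 1. At chr5:127211016-127216039 the peaks were 4252, 5024 and 3473 bp, and the bins 600, 3185 and 800 bp. These 3 were also the widest in which both callers gave the same pattern, and neither caller found anything in mutant 2. At chr15:80132764-80137913, by contrast, the width came from mutant 1, with 4237 bp of peaks there against 976 and 485 bp in the controls, only 15 bp common to all 3, and bins in mutant 1 alone. The fifth, chr7:29516372-29521249, had 4076 and 3841 bp in the controls and 1392 bp in mutant 1, with bins in all 3.

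Among the widest regions kept in mutant 2 alone were 2 in which mutant 1 had extensive bins but no peak. The widest, chr11:3187161-3192485, held 5133 and 5095 bp of peaks in the controls and 5264 bp in mutant 2, and its bins covered 5000, 4800, 4800 and 5000 bp in controls 1 and 2 and mutants 1 and 2. At chr11:3400538-3405816 the peaks covered 2092, 2894 and 5279 bp in the controls and mutant 2, and the bins 1800, 2000, 4400 and 4600 bp in the 4 libraries. The second caller thus placed both regions in all 4 libraries. The nearest mutant 1 peaks lay 82.1 and 8.45 kb away.

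The other 3 of the widest 5 kept in mutant 2 alone had few or no bins in mutant 1. At chr6:7930238-7935444 peaks covered 3239 and 5207 bp in the controls and 3253 bp in mutant 2, with bins of 3000, 3800, 0 and 3000 bp in controls 1 and 2 and mutants 1 and 2. This region, 145 kb from the nearest mutant 1 peak, was the widest in which both callers gave the mutant 2 pattern. At chr19:24237355-24242165 peaks covered 4529, 4089 and 1234 bp in the controls and mutant 2, while the bins, 3000 and 3400 bp in the controls, reached 200 bp in mutant 1 and none in mutant 2. At chr15:94165168-94169549 mutant 2 kept 265 bp of peaks against 3022 and 3177 bp in the controls, with bins of 600 bp in mutant 2 and none in mutant 1. The next widest in which both callers agreed, chr11:18990865-18995139, held 4275 and 2380 bp in the controls and 1114 bp in mutant 2.

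Bins of the lacking mutant that covered at least 50% of the region were rare, as they were in regions of both controls and neither mutant. Among those 2684 regions, mutant 2 bins covered as much in 6 (0.224%) and mutant 1 bins in 3 (0.112%). The single-mutant cases were chosen after their values were seen. They numbered 4 in the mutant 1 class (0.216%) and 3 in the mutant 2 class (0.346%). All 3 of the latter lay on chromosome 11, and 2 of them are chr11:3187161-3192485 and chr11:3400538-3405816, named above. The third, chr11:3407077-3409424, with mutant 1 bins of 2224 bp, lay close to chr11:3400538-3405816 only. The former were chr1:172038013-172042364 and chr17:88884862-88887108, where the bins of mutant 2 covered 3188 and 1600 bp, about as much as in the other libraries, and chr1:94328223-94329223 and chr17:61746544-61747313, where bins were found in mutant 2 alone, at 600 and 400 bp.

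Where bins were present in the lacking mutant and absent in the keeping one, the widest 3 regions of each class held about 1 bin there. The widest in the mutant 1 class were chr13:58749272-58751739, chr16:96494671-96496872 and chr7:137271959-137274083, with 200, 130 and 200 bp of mutant 2 bins. In the mutant 2 class the region on chromosome 19 named above was the widest, followed by chr6:129802974-129804598 and chr10:4854968-4856555, each with 200 bp of mutant 1 bins. All 6 had peaks of the keeping mutant, from 299 to 1420 bp long.

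Position was compared last. Both classes were spread over all 19 autosomes, and on each of the 19 more regions were kept in mutant 1 than in mutant 2. Chromosome 16 had the largest share of its regions of both controls in a single mutant, 13.8% of 860, of which 83 were kept in mutant 1 and 36 in mutant 2. Chromosome 19 had the smallest, 8.80% of 784, with 45 and 24. The share of the single-mutant regions that mutant 1 held ranged from 59.1% on chromosome 17 to 74.1% on chromosome 7 (95% Wilson interval 66.4 to 80.6%). The interval of chromosome 17, whose upper end was 67.7%, was the only 1 of 19 that did not include the overall 68.1%. Mutant 1 had between 1.21 (chromosome 10) and 1.44 (chromosome 16) times as many peaks as mutant 2. On those chromosomes it held 68.9% and 69.7% of the single-mutant regions. On chromosomes 17 and 7, with the lowest and highest share, it had 1.22 and 1.41 times as many peaks as mutant 2. Whether the ratio of peaks bears on the share was not tested.

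**Figure D5:**
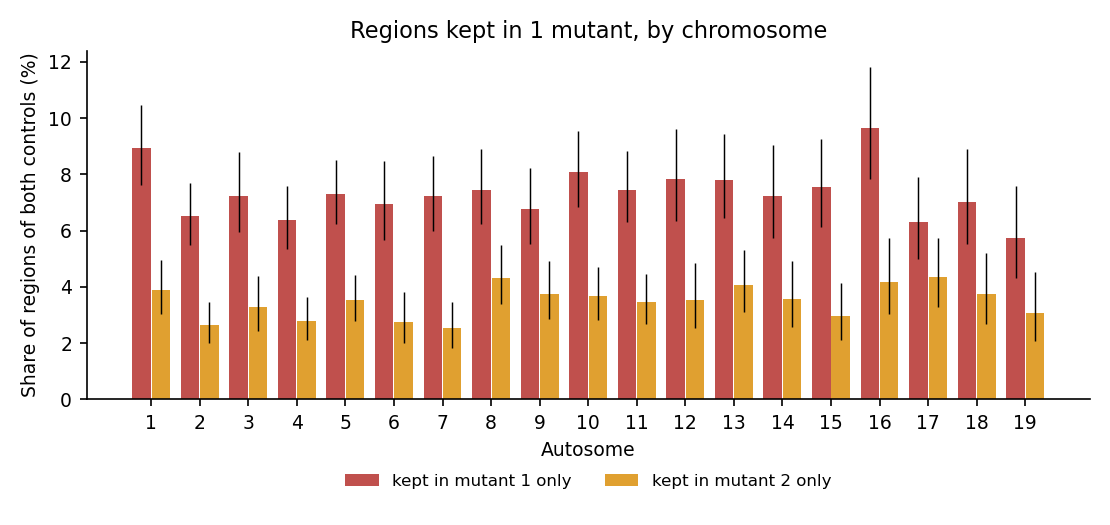
Share of each autosome's regions of both controls (vertical axis, %) kept in mutant 1 only and in mutant 2 only; lines are 95% Wilson intervals for counting error. Mutant 1 has the higher bar on all 19 autosomes, with chromosome 16 the highest at 9.65%.

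Along the chromosomes the classes were placed alike. The mutant 1 regions fell 28.4, 29.2 and 42.4% into the first, middle and last of 3 equal parts of the span with calls, and the mutant 2 regions 27.2, 31.3 and 41.5%. All regions of both controls fell 25.6, 29.4 and 45.0%, below the counting interval of the mutant 1 class in the first part (26.4 to 30.5%) and within that of the mutant 2 class (24.3 to 30.2%). In the last part they lay above the intervals of both classes (40.2 to 44.7% and 38.2 to 44.8%). The same held for regions of both controls and neither mutant, which fell 26.4, 30.6 and 43.0% (41.1 to 44.9% in the last part). The ends of the spans were taken from the calls themselves and not from chromosome lengths.

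Single-mutant regions lay farther from the regions that every library shared than those did from each other, as did regions lost from both mutants. The median gap to the nearest region of all 4 libraries was 20.4 kb for the mutant 1 class and 23.2 kb for the mutant 2 class, against 15.8 kb between regions of all 4 libraries themselves and 23.8 kb for regions of both controls and neither mutant. The difference of -2.88 kb between the classes had a 95% interval from -6.67 to 0.451 kb. It was -7.85 kb with peaks of at least 1 kb (-15.2 to -2.99). With the same number of widest peaks it was -6.06 kb (-9.13 to -1.64). Without control 1 it was -2.93 kb (-5.84 to -0.703) and without control 2 -3.87 kb (-7.00 to -1.71). Each of these alternative intervals lay below 0, whereas those of the other alternatives included 0. A region of all 4 libraries lay within 5 kb of 18.7% of mutant 1 regions and 15.0% of mutant 2 regions, against 23.8% of regions of all 4 libraries and 14.8% of those of neither mutant. None lay within 100 kb of 17.1% and 16.4%, against 12.2% and 18.2%.

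The neighbours of single-mutant regions were of much the same kinds as regions of both controls in general. Among the adjacent regions of both controls, 76.8% next to a mutant 1 region were called in all 4 libraries, against 78.6% of all regions of both controls, and 8.81% were also kept in mutant 1 alone, against 7.32%. Next to a mutant 2 region, 75.2% were called in all 4, 4.04% were also kept in mutant 2 alone, against 3.43%, and 13.5% were lost from both mutants, against 10.6%. The densest window of 1 Mb for the mutant 1 class, chr16:30540406-31540405, held 9 of them among 32 regions of both controls, with 2 kept in mutant 2 and 21 in both. For the mutant 2 class, chr12:51909969-52909968 held 5 among 14, with 1 kept in mutant 1, 7 in both and 1 in neither; windows from 2 other starting points also held 5.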

How the data were processed

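The members and the measures were chosen with earlier results of these data known. The authors deposited 1 MACS2 list of peak positions (start and end in bp, with no height or p-value) per library, per the file headers, and 1 list of hiddenDomains bins with a display score, per the file headers whose meaning no source explains. The submitters' processing notes name the build mm9 and the tools Bowtie, SAMtools and bedtools; their versions, the calling thresholds, control tracks and depth: not given in the sources used here. The file names pair each library with a track of its own genotype. The 2 input samples had no file used here. No mm9 sequence or annotation was used, so genes near the regions are not named; positions count from 1.

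Intervals were merged and measured in Python 3.11.15 with NumPy 2.4.6, pandas 2.3.3 and SciPy 1.17.1; these steps were tested on simulated intervals. A library had a region with at least 1 bp of a peak. Regions are not replicates and each class rests on 1 mutant library, so no p-value is given; intervals (Wilson for shares, order statistics for medians, combined by the MOVER method for differences) cover counting error only. Regions named are the 5 widest of each class, the 3 widest in which bins match or contradict the peaks, those nearest the rule's limits, and the densest windows. Alternatives changed merging, overlap, chromosomes, peak length, number of peaks, caller, bin score, bin overlap and the controls used.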

Additional observations from a re-analysis of the deposited data

How the results depend on the processing

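No paired analysis was possible because the results come from no test. Leaving out a mutant could not be done, since the rule needs both. Without 1 control, 2951 to 3018 regions were kept in mutant 1 only and 1128 to 1155 in mutant 2 only, the differences (mutant 1 class minus mutant 2 class) were 43 to 55.5 bp in median width, 163 to 171 bp in the keeping mutant's median peak length, 4.53 to 5.08 percentage points in support and -3.87 to -2.93 kb in the median gap to a region of all 4 libraries. With the same number of widest peaks the counts were 1008 and 2180. The width difference was then 265.5 bp, the peak length difference 471.5 bp and the gap difference -6.06 kb. By construction this setting removes short peaks mainly from mutant 1. With peaks of at least 1 kb 1162 regions were kept in mutant 1 only, the width difference was 81 bp and the gap difference -7.85 kb. When a library had to cover at least 50% of a region, the peak length difference was 29 bp (counting interval -24.8 to 89.2 bp) and the gap difference 0.564 kb. With hiddenDomains regions the length was that under bins of the keeping mutant instead of peaks, and its difference was 0 bp, in steps of 200 bp bins. When bins had to cover at least 50% of a region, the support difference was 0.238 points. For these the cause was not tested. The support difference of 4.30 points was 1.02 points when a library had to cover at least 50% of a region, 0.681 with peaks of at least 1 kb, 2.13 with the same number of widest peaks and 2.16 with bins of the highest score, each with a counting interval that included 0. Merging peaks up to 1 kb apart and using all chromosomes moved no value beyond its counting interval, or any count by over 1.5 times. Depth is unknown, so a missing call is not shown to be a missing mark.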
